A study of Arabidopsis thaliana with 30 samples.

Results

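Seedlings of the Arabidopsis thaliana mutant spc were compared with wild-type Col-0 seedlings by RNA sequencing, with 3 libraries of each genotype among the 30 libraries of the series. All seedlings were 12 days old, were grown on MS medium plates in long days and received no treatment. The other 8 genotypes, grown alike and with 3 libraries each, were 6 single mutants (ada2a, ada2b, eaf6, gcn5, ing1, sdrl) and 2 double mutants (ada2aspc, spcing1). No allele is given for any mutation, and nothing says that replicate libraries are separate plantings, so p-values measure only the spread between these libraries. Of 32548 genes in the table, 21868 reached a normalised value of 10 in at least 3 of the 30 libraries and were tested.

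GCN5 is a histone acetyltransferase that works as part of multi-subunit complexes, in which an ADA2 adaptor protein links it to the other subunits. Plants have a complex of the SAGA type, with ADA2B, and a plant-specific complex with ADA2A, of which SPC, ING1, SDRL and EAF6 have been described as subunits. Histone acetylation at gene starts goes with active transcription, and loss of GCN5 is known for dwarfed growth and altered responses to light and stress.

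The normalised values of a library summed to 39733459 to 40350925 in spc and 37686267 to 37796775 in Col-0. Pearson's r across genes was 0.982 between spc libraries, 0.980 to 0.983 between Col-0 libraries and 0.954 to 0.958 between the genotypes. The locus of SPC is not given in the labels or named in the reference, so the spc label could not be checked against its own gene. ADA2A, the adaptor gene (chr3:2469783-2473095, minus strand), was at 638 ± 41.8 in spc and 589 ± 36.4 in Col-0, and ING1, a PHD finger subunit gene (chr3:8675905-8678286, minus strand), at 689 ± 79.7 in spc and 707 ± 30 in Col-0 (mean ± SD, n = 3). Neither passed the test (adjusted p = 0.703 and 0.836, limma). The locus annotated as a NuA4-domain acetyltransferase subunit, AT4G14385, which was at 118 ± 23.5 in eaf6, was at 922 ± 50.7 in spc and 825 ± 9.25 in Col-0 (adjusted p = 0.244). HAG1, the gene of GCN5, was at 515 ± 45.8 in spc and 619 ± 35.9 in Col-0 and did not pass (adjusted p = 0.063, log2 difference -0.27 ± 0.12). It passed as lower when libraries were scaled to equal column totals (-0.36) and without spc replicate 1 (-0.34). Coordinates are those of RefSeq's TAIR10.1 annotation.

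At an adjusted p below 0.05, 8729 genes differed between spc and Col-0, which is 39.9% of those tested. Of these, 4431 were higher in spc (20.3%) and 4298 lower (19.7%). At least 2-fold higher were 1197 genes (5.47%) and at least 2-fold lower 577 (2.64%). A change of at least 4-fold was reached by 421 rises and 132 falls, while 6955 of the genes that passed changed less than 2-fold. The median log2 difference of all tested genes was -0.01. When libraries were scaled to equal column totals, that median moved to -0.102 and 37.0% of the passing genes were higher in spc, against 50.8% on the deposited scale. All 3 spc libraries lay above all 3 Col-0 libraries for 24.8% of the tested genes and below them for 25% of them. Log2 differences below are given ± SE from the fit, on the scale log2(value + 1), with spc minus Col-0.

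Among genes with a symbol and a mean of at least 100 in spc whose groups did not overlap, the 15 largest rises included several known for fast responses to touch, wounding and other stresses. TCH4, which encodes a xyloglucan endotransglucosylase of the cell wall named for its induction by touch (chr5:23307006-23308680, minus strand), was at 546, 601 and 631 in the Col-0 libraries and 31933, 29135 and 33616 in the spc libraries. The lowest spc library stood far above the highest Col-0 library, and the log2 difference was 5.73 ± 0.26 (adjusted p = 1.2e-16). DIC2, a mitochondrial dicarboxylate carrier gene (chr4:12686459-12687650, plus strand), was at 96.9, 74.5 and 82.2 in the Col-0 libraries and 4529, 3549 and 3939 in the spc libraries, a log2 difference of 5.55 ± 0.30. PHI-1, of the EXORDIUM family (chr1:12851983-12853235, plus strand), was at 83.8, 46.4 and 78.9 in the Col-0 libraries and 3503, 2873 and 3266 in the spc libraries, with a log2 difference of 5.55 ± 0.31. EXO, the founding gene of that family and a cell expansion gene, was at 629, 496 and 556 in the Col-0 libraries and 13741, 12792 and 15244 in the spc libraries. Its log2 difference was 4.64 ± 0.17 (adjusted p = 1.1e-18), and the groups did not overlap.

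The 15 also took in transcription factor and RNA decay genes. DREB26, of the AP2/ERF class, was at 123, 96.4 and 120.0 in the Col-0 libraries and 3711, 2956 and 3569.6 in the spc libraries. WRKY40, a regulator of immune and abscisic acid responses, was at 90.9, 76.9 and 133 in the Col-0 libraries and 2668, 2069.7 and 2546 in the spc libraries, and its Col-0 libraries spread more widely than its spc libraries in relative terms. SZF1, a CCCH zinc finger gene of the salt response, was at 674, 665 and 614 in the Col-0 libraries and 15823, 12571 and 15370.3 in the spc libraries. These 3 genes had log2 differences of 4.90 ± 0.20, 4.61 ± 0.25 and 4.48 ± 0.21. The ethylene response factor genes ERF104 and ERF6 followed at 4.40 ± 0.21 and 4.39 ± 0.22, and the zinc finger genes STZ and ZAT7 at 4.37 ± 0.24 and 4.09 ± 0.59. ZAT7 was the lowest and least precise of the 15, with 175, 209 and 315 in the spc libraries against a mean of 15.9 ± 14.3 (SD, n = 3) in Col-0. CYP707A3, whose product breaks down abscisic acid, was at 104, 85.2 and 68.7 in the Col-0 libraries and 1848, 1612 and 1908 in the spc libraries. TCH3, a calmodulin-like gene of the touch response, was at 348, 520.5 and 474 in the Col-0 libraries and 8269.8, 8592 and 8287 in the spc libraries and had the smallest adjusted p of the 15, 2.2e-20. HSPRO2, annotated as the ortholog of a sugar beet gene, rose by 4.12 ± 0.20. CAF1a, a deadenylase gene that shortens mRNA tails, was at 203, 157 and 212 in the Col-0 libraries and 3005, 3259 and 3479 in the spc libraries.

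**Figure D1:**
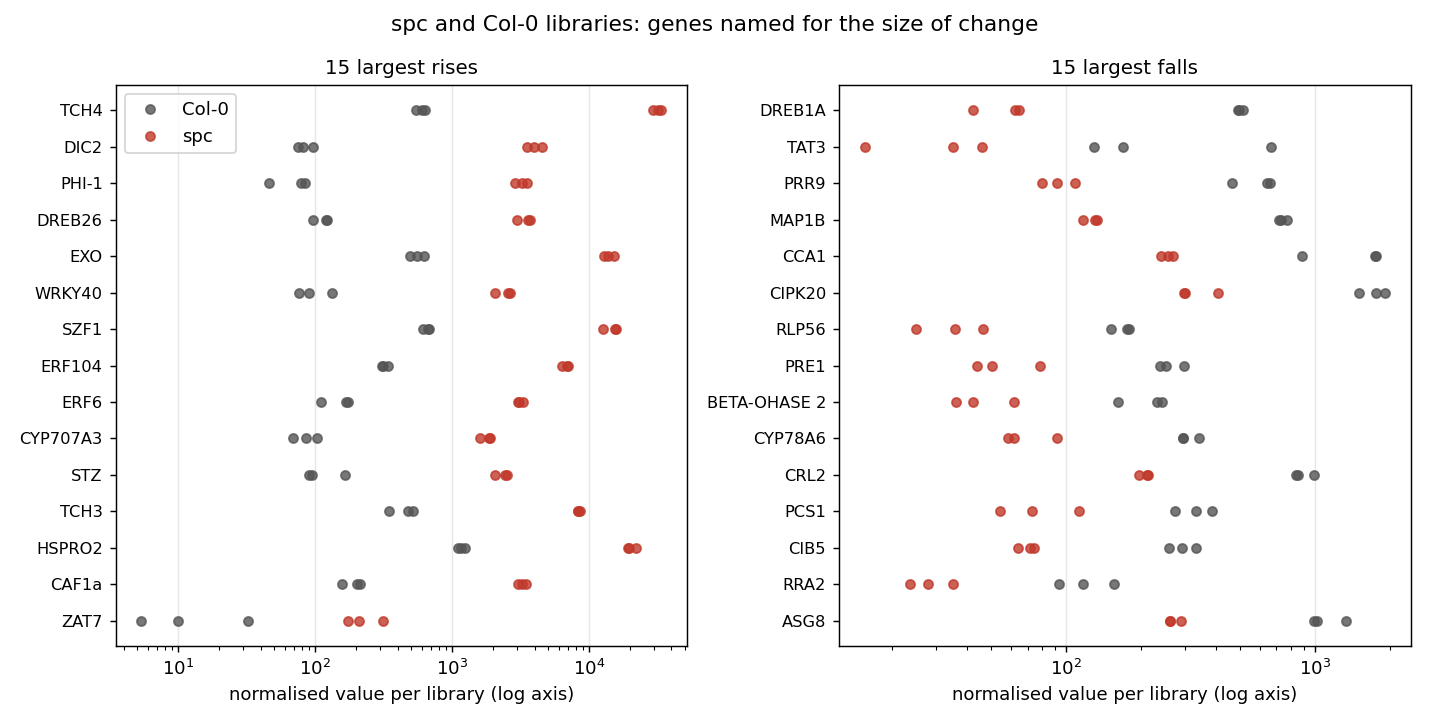
Normalised value of each library (points, logarithmic horizontal axis) in 3 Col-0 and 3 spc libraries for the 15 largest rises and the 15 largest falls in spc, ordered by the size of the log2 difference. In each of these 30 genes the spc and Col-0 points do not overlap, which the rule for choosing them required, and TCH4 ranges from 29135 to 33616 in spc against 546 to 631 in Col-0.

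Upstream sequence of 3 of these genes is shown because each holds letters that were searched for, DIC2 and PHI-1 among the rises and PRR9, a clock gene described with the falls. Each is the 250 bases before the annotated gene start, on the strand of the gene, from RefSeq's TAIR10.1 genome. Capitals mark CGCGTT, known as the core of the rapid stress response element bound by CAMTA calmodulin-binding factors, TTGAC, the W-box core of WRKY factors, CACGTG, the G-box, and AATATCT, from the evening element, each on either strand.
DIC2, chr4:12686209-12686458, plus strand: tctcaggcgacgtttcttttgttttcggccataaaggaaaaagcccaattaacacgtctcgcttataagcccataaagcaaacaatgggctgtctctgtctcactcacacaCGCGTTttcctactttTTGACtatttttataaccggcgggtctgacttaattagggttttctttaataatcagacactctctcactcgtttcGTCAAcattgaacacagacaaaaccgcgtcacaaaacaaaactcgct
PHI-1, chr1:12851733-12851982, plus strand: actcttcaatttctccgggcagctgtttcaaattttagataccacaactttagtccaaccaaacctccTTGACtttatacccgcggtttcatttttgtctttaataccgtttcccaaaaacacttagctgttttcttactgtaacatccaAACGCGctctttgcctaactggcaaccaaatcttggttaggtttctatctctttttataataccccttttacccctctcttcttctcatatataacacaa
PRR9, chr2:19232357-19232606, plus strand: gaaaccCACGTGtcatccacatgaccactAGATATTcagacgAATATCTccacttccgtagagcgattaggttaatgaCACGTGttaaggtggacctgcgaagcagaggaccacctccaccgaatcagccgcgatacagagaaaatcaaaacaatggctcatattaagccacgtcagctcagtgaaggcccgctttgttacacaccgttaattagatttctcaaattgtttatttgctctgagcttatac

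CGCGTT was found in the 250-base windows of 78 of 1195 genes at least 2-fold higher in spc (6.53%), against 610 of 21855 windows of all tested genes (2.79%). Among genes at least 4-fold higher the share was 33 of 420 (7.86%), and among genes at least 2-fold lower it was 11 of 577 (1.91%). TTGAC, a short motif present in 45.1% of all windows, was in 49.1% of the windows of the 2-fold rises and in 46.6% of those of the 2-fold falls. GCCGCC, the GCC box of ethylene response factors, was in 2.09% of the windows of the 2-fold rises and 1.95% of all windows. Of the 15 largest rises, 2 held CGCGTT and 10 held TTGAC. A match describes these letters only and is no evidence of binding.

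Of 27 touch and early stress genes 26 were tested, of which 25 were higher in spc, all at least 2-fold, and 0 were lower, with a median log2 difference of 3.29 against -0.01 for all tested genes. This list and those below were chosen with earlier results of these data known, so counts of their members are descriptions. All such counts are to be read against the 20.3% of tested genes that were higher and the 19.7% that were lower. The summed value of the touch and early stress list was 7949 to 8891 in the Col-0 libraries and 113415 to 127805 in the spc libraries. The member that did not pass was MYB15, at 22.6, 22.8 and 14.9 in the Col-0 libraries and 13.5, 30.2 and 20.5 in the spc libraries. Of the 15 largest rises, 15 were higher than Col-0 in ada2a, ing1, sdrl and eaf6, where 15.1%, 17.5%, 17% and 25.2% of all tested genes were higher, in that order. In ada2b 14 were higher, against 23.5% of all genes, and in gcn5 11, against 18.2%. Those comparisons use the same Col-0 libraries, so they do not count as independent observations. Handling before harvest is not in the labels, and its part in these values was not tested.

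**Figure D2:**
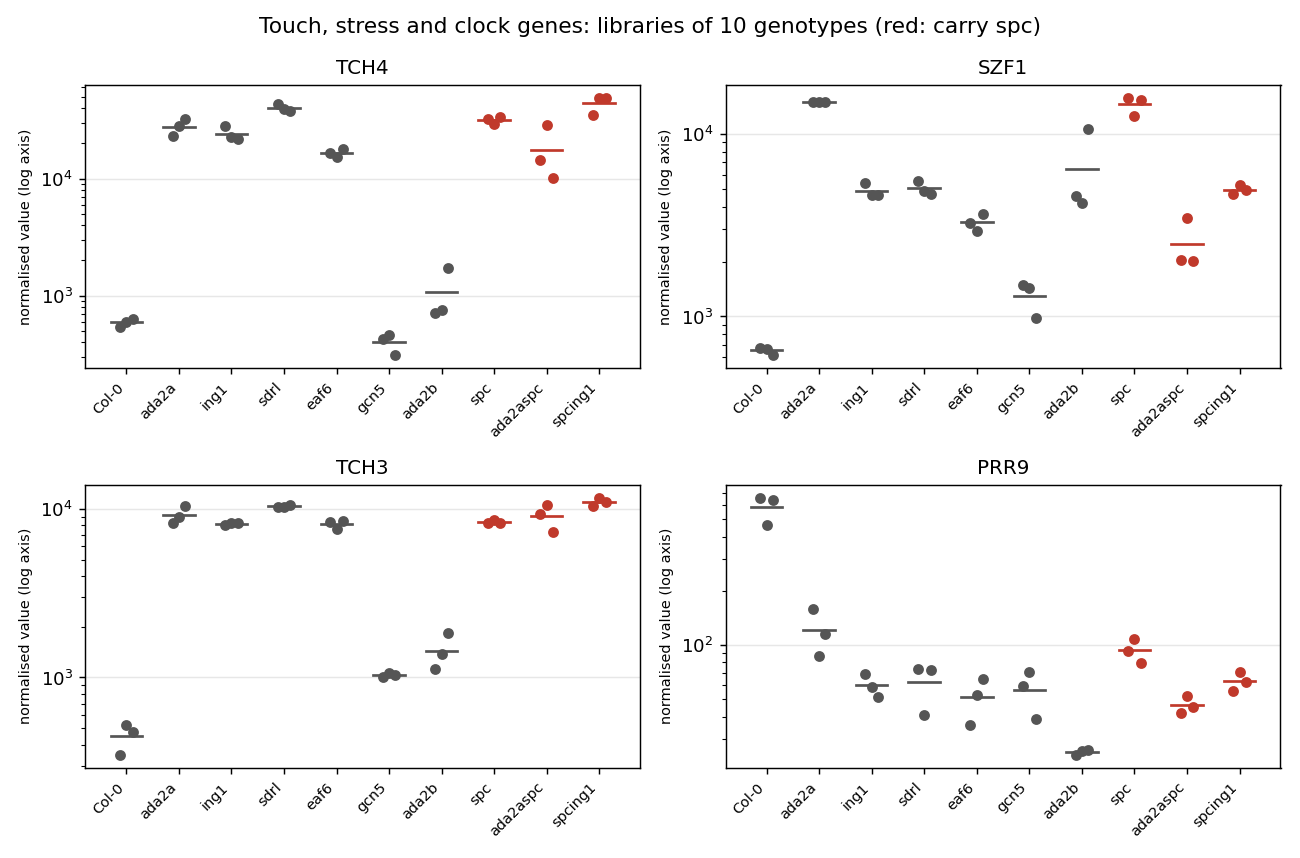
Normalised value of each library (points) and genotype mean (bars) on a logarithmic vertical axis for TCH4, SZF1, TCH3 and PRR9 in 10 genotypes, with genotypes that carry spc in red. The Col-0 mean of SZF1 is 651 and those of spc and ada2a are 14588 and 15029, while ada2aspc stands at 2506.

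By the number of genes that differed, spc was nearest to ada2a among the other single mutants. Between spc and ada2a 143 genes differed (0.654% of those tested), 33 higher (0.151%) and 110 lower (0.503%) in spc. Against ing1 there were 521 (2.38%, with 1.47% higher and 0.915% lower), against sdrl 2483 (11.4%) and against eaf6 8800 (40.2%). Against gcn5 there were 11970 (54.7%), and against ada2b 14611 (66.8%). None of the 15 largest rises and none of the 26 touch and early stress genes passed between spc and ada2a. The log2 differences of those 15 ran from -0.21 to 0.91 with spc minus ada2a, so a difference of that size remains possible for some of them. Against ing1, 10 of the 15 and 13 of the 26 were higher in spc and 0 lower. SZF1, for instance, was at 14588 ± 1761 in spc, 15029 ± 22.4 in ada2a and 4885 ± 422 in ing1. Against the mean of the 6 other single mutants, 8183 genes differed (37.4%), 5058 higher (23.1%) and 3125 lower (14.3%) in spc, and 25 of the 26 touch and early stress genes were higher. Scaled to equal column totals, that split turned to 32.4% higher, from 61.8%. The counts given here for the 15 and the 26 reuse the spc libraries by which the 15 were chosen. The list of 26 was chosen with earlier results known. Part of a lean towards higher in spc can therefore come from the choice of genes, and these counts are descriptions.

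Among genes with a symbol and a mean of at least 100 in Col-0 whose groups did not overlap, the 15 largest falls included a cold regulator and the clock genes PRR9 and CCA1. DREB1A, a cold-induced transcription factor also called CBF3 (chr4:13018010-13019400, minus strand), was at 490.0, 494 and 513 in the Col-0 libraries and 62.0, 64.6 and 42.0 in the spc libraries. Its log2 difference was -3.15 ± 0.36 (adjusted p = 4.0e-08). PRR9, a pseudo-response regulator that peaks in the morning (chr2:19232607-19235179, plus strand), was at 661, 463 and 639 in the Col-0 libraries and 92.1, 108 and 79.8 in the spc libraries, a log2 difference of -2.64 ± 0.27. CCA1, the MYB factor of the morning loop (chr2:19245591-19248915, plus strand), was at 1742, 888 and 1756 in the Col-0 libraries and 257, 241 and 269 in the spc libraries, and 1 Col-0 library lay well below the other two. CIPK20, a calcium-regulated protein kinase gene, was at 1904, 1762 and 1508 in the Col-0 libraries and 408, 297 and 301 in the spc libraries. TAT3, a tyrosine aminotransferase gene known to respond to jasmonate, was at 129, 169 and 663 in the Col-0 libraries and 35.1, 46.0 and 15.5 in the spc libraries, so its log2 difference of -3.02 ± 0.66 has a wide error. In none of these 5 genes did the groups overlap.

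The other 10 of the 15 included PRE1, a helix-loop-helix gene that promotes cell elongation, at 297, 252 and 239 in the Col-0 libraries and 43.6, 78.8 and 50.1 in the spc libraries. CYP78A6, a cytochrome P450 gene, was at 294, 295 and 341 in the Col-0 libraries and 91.9, 61.8 and 58.3 in the spc libraries, and PCS1, an aspartic protease gene, fell by 2.08 ± 0.27 on the log2 scale. CIB5, a cryptochrome-interacting factor gene, was at 259.8, 333 and 292 in the Col-0 libraries and 64.2, 73.9 and 71.5 in the spc libraries. BETA-OHASE 2, a carotenoid hydroxylase gene, RLP56, a receptor-like protein gene, RRA2, annotated as a sugar transferase, and ASG8, uncharacterised, had log2 differences of -2.17 ± 0.40, -2.25 ± 0.28, -2.03 ± 0.29 and -2.03 ± 0.14. The remaining 2 of the 15, MAP1B and CRL2, are described with the genes that set spc apart from the other mutants. Of the 15 largest falls, 15 were also lower than Col-0 in ada2a and in ing1, 14 in sdrl and 13 in eaf6. In gcn5 11 were lower, and in ada2b 10 were lower and 3 higher. Their median log2 differences from Col-0 were -1.75 in ada2a and -1.87 in ing1, against -0.04 and -0.02 for all tested genes. Those comparisons share the Col-0 libraries by which the 15 were chosen.

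Among morning clock genes, 8 of 10 were lower in spc and 0 higher, with a median log2 difference of -1.33. Besides CCA1 and PRR9, AT3G54500 was at 4570.0, 3363 and 4151 in the Col-0 libraries and 1534, 1179 and 1493 in the spc libraries and AT5G64170 at 3208, 2776 and 3273 in the Col-0 libraries and 1269, 1374 and 1528 in the spc libraries, both with no overlap. RVE1 (0.40 ± 0.24) and LCL1 (0.06 ± 0.12), both of the CCA1 family, did not pass. Among evening clock genes, 5 of 12 were higher and 2 lower, with a median of 0.14. TOC1, the evening partner of CCA1, was at 5463, 6544 and 6301 in the Col-0 libraries and 12795, 12130.1 and 13400.5 in the spc libraries, and BOA, a GARP factor, at 476, 669 and 575 in the Col-0 libraries and 1726, 1666 and 1715 in the spc libraries, each above every Col-0 library. PCL1, the LUX factor of the evening complex, and TCP11 had log2 differences of 0.65 ± 0.05 and 0.95 ± 0.09. The 2 lower calls were GI, at -0.37 ± 0.10, lost without spc replicate 2 (-0.25), and FKF1, at -0.23 ± 0.09, lost without Col-0 replicate 2 or 3 or spc replicate 1 or 2 (-0.25 to -0.12). Windows holding AATATCT were found for 7 of the 12 evening genes and 4 of the 10 morning genes, against 2214 of all 21855 windows, and CACGTG for 2 and 5, against 7.17%. Between spc and ada2a, 0 of the 12 evening genes and 1 of the 10 morning genes differed, against 0.654% of all tested genes. The hour of harvest of each genotype is not in the labels, and its part in the clock genes was not tested.

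Defence and stress hormone genes rose more often than they fell. In the list on salicylic acid and immunity, 10 of 21 were higher and 4 lower, with a median of 0.38. WRKY70, a regulator of salicylic acid responses, was at 896, 1150.2 and 1416 in the Col-0 libraries and 9297, 11465 and 12487 in the spc libraries, and SARD1, an activator of salicylic acid synthesis genes, at 48.3, 93.8 and 128 in the Col-0 libraries and 1019.9, 974 and 1146 in the spc libraries. Both groups stood apart by a wide margin. RBOHD, an NADPH oxidase gene, and EDS1, an immune regulator gene, had log2 differences of 1.85 ± 0.13 and 0.98 ± 0.08. The enzyme gene EDS16, which makes the salicylic acid precursor, moved the other way, at 499, 639 and 612 in the Col-0 libraries and 463, 445 and 353 in the spc libraries (adjusted p = 0.00287). The pathogenesis-related gene BGL2 was at 51.2, 985 and 1779.9 in the Col-0 libraries and 98.9, 21.7 and 56.2 in the spc libraries. Its groups overlapped, and its fall of 3.15 ± 0.98 on the log2 scale did not pass without Col-0 replicate 2 (-2.59), without Col-0 replicate 3 (-2.16) or without spc replicate 2 (-2.58). The lower count of the list was 2 without either of those Col-0 libraries and 1 without spc replicate 2. PR1 was at 8.4, 305 and 203 in the Col-0 libraries and 31.8, 0.4 and 10.3 in the spc libraries and did not pass (adjusted p = 0.0997).

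Jasmonate genes were higher in 11 of 20 cases and lower in 2, with a median of 0.67. The repressor genes JAZ1, at 557, 563 and 629 in the Col-0 libraries and 1999.7, 2255 and 3000.1 in the spc libraries, and JAZ7, at 17.0, 13.2 and 13.7 in the Col-0 libraries and 115, 386 and 264 in the spc libraries, and the lipoxygenase gene LOX4, at 197, 145 and 223 in the Col-0 libraries and 1381, 1130.3 and 1481 in the spc libraries, were above Col-0 in every spc library. LOX2, the chloroplast lipoxygenase gene of jasmonate synthesis, and AOC2, an allene oxide cyclase gene, were lower, by log2 differences of -0.85 ± 0.18 and -0.41 ± 0.10. Scaled to equal column totals, 4 jasmonate genes passed as lower. Of 19 ethylene genes 10 were higher and 4 lower, with a median of 0.33. The ACC synthase genes ACS11, at 40.5, 32.8 and 31.7 in the Col-0 libraries and 492, 472 and 411 in the spc libraries, and ACS6, at 435, 381 and 441 in the Col-0 libraries and 4317, 4196 and 4560.2 in the spc libraries, led the rises. The 4 lower calls, ETR1, ACS5, ACS2 and ACS4, had log2 differences of -0.82 to -0.21. Of the list, 0 passed as lower without spc replicate 3, 2 without spc replicate 1 and 1 without each of the other 4 libraries.

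Cold response genes split, with 5 of 16 higher and 3 lower, against 20.3% and 19.7% of all tested genes, and a median of 0.14. DDF1 and ddf2, AP2 genes related to the CBF factors, were listed at 0 in all 3 Col-0 libraries and at 88.0, 117 and 93.1 and 18.6, 12.7 and 18.4 in spc, so no fold is given. COR47, a dehydrin gene, was at 24324, 22702 and 22985 in the Col-0 libraries and 33225, 32864 and 32591 in the spc libraries, while LTI78, a cold and drought gene, was at 21769, 22603 and 31623 in the Col-0 libraries and 13036, 14153 and 15018 in the spc libraries. Abscisic acid genes were higher in 7 of 15 cases and lower in 2, with a median of 0.32. The phosphatase genes HAI1 and HAI2 went opposite ways, by 0.92 ± 0.14 and -1.45 ± 0.32. Without Col-0 replicate 3 or any 1 spc library, 1 passed as lower. Of 12 hypoxia genes 11 were higher and 0 lower, with a median of 0.71, and LBD41, a hypoxia-induced factor gene, was at 1228, 1082 and 1364 in the Col-0 libraries and 2411, 2787 and 2453 in the spc libraries. ADH1, alcohol dehydrogenase of fermentation, was at 6304, 5862 and 6369 in the Col-0 libraries and 9077, 11356 and 10058 in the spc libraries. Of 13 heat shock genes 5 were higher and 0 lower, with a median of 0.53, led by the factor genes HSFB2A (1.86 ± 0.16) and HSFA3 (1.70 ± 0.16). The small heat shock protein genes HSP21 and HSP18.2 did not pass, at 1.62 ± 0.78 and 0.53 ± 0.27.

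**Figure D3:**
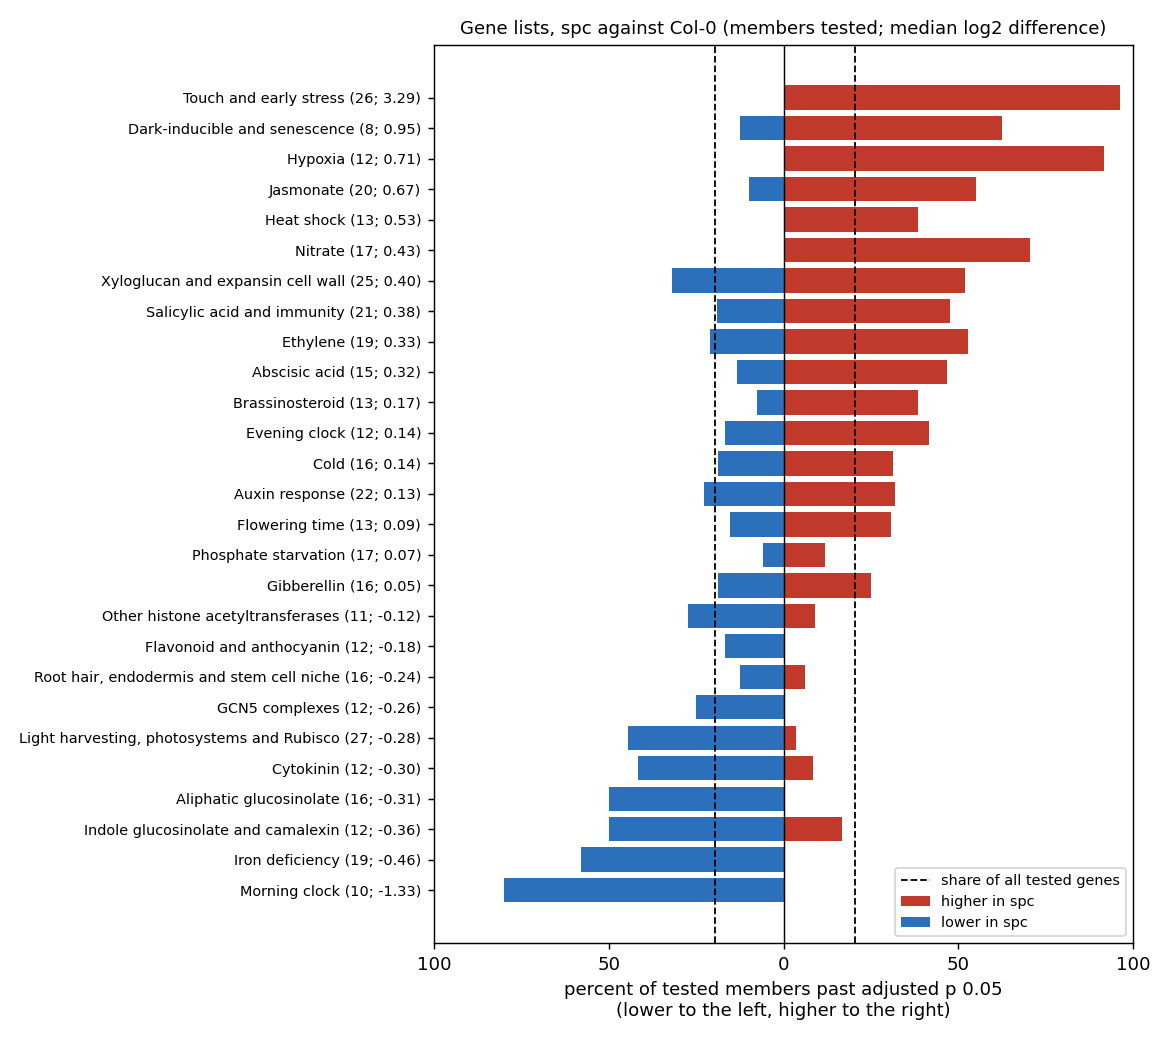
Percent of the tested members of 27 gene lists that passed as higher (right, red) or lower (left, blue) in spc than in Col-0, with the number of members tested and the median log2 difference in the labels. Dashed lines mark the shares of all tested genes, 20.3% higher and 19.7% lower. Touch and early stress genes are at the top with 25 of 26 higher, and morning clock genes at the bottom with 8 of 10 lower.

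Photosynthesis genes were lower in 12 of 27 cases and higher in 1, with a median of -0.28. Compared with ada2a, 5 of the 27 were lower in spc and 0 higher, against 0.503% and 0.151% of all tested genes. The light-harvesting genes LHCB2.1, at 97448, 75949.9 and 85876 in the Col-0 libraries and 40002, 34079.6 and 34511 in the spc libraries, and CAB2, at 102722, 83929 and 92229 in the Col-0 libraries and 41083, 33361 and 32459 in the spc libraries, were below every Col-0 library. LHCB2.2 had a log2 difference of -1.07 ± 0.11. These are members of families with near-identical copies, and how reads shared between copies were counted is not given in the sources used here, so the split between copies is uncertain. LHCB4.3 was the member that rose, at 413, 312 and 313 in the Col-0 libraries and 543, 673 and 582 in the spc libraries, and without Col-0 replicate 3 or spc replicate 1 the list had 2 rises. The list, taken as a marker of green tissue, summed to 3991434 to 4068023 in Col-0 and 3183911 to 3426466 in spc. The 16 root genes summed to 6814 to 9241 in Col-0 and 6580 to 7573 in spc, ranges that overlap, with 1 higher and 2 lower. The root count higher was 0 without Col-0 replicate 2 or 3 or spc replicate 1 and 2 without Col-0 replicate 1, and the count lower was 1 without Col-0 replicate 1 or 2 or spc replicate 3. No member of either list had a mean below 1. In RNA from seedlings, fewer cells of a type and less RNA per cell cannot be told apart.

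Glucosinolate genes leaned down. Of 16 aliphatic genes 8 were lower and 0 higher, with a median of -0.31, among them the regulator MYB29 at 496, 608 and 595 in the Col-0 libraries and 254, 210.0 and 245 in the spc libraries. Of 12 indole and camalexin genes 6 were lower and 2 higher, with a median of -0.36. The 2 rises were MYB51, an activator of the indole branch, at 1911 ± 151 in spc and 333 ± 62.4 in Col-0 (mean ± SD, n = 3), and CYP81F2, which modifies indole glucosinolates, at 161, 165 and 185 in the Col-0 libraries and 677, 725 and 731 in the spc libraries. MYB34, another activator of the branch, was at 1364, 1249 and 1456 in the Col-0 libraries and 643, 912 and 696 in the spc libraries. Of 12 flavonoid genes 0 were higher and 2 lower, MYB12 (-0.63 ± 0.22) and TT4 (-0.41 ± 0.16). The MYB12 call was lost without Col-0 replicate 1 or 2 or spc replicate 1 or 3 (-0.60 to -0.53), and the TT4 call without any library except Col-0 replicate 2 (-0.44 to -0.29).

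Nutrient genes went in different directions by nutrient. Of 19 iron deficiency genes 11 were lower and 0 higher, with a median of -0.46. The helix-loop-helix gene bHLH38 was at 999, 1245 and 1135 in the Col-0 libraries and 387, 318 and 331 in the spc libraries, AT2G30766 at 608, 810.1 and 780.2 in the Col-0 libraries and 184, 171 and 150.3 in the spc libraries and AT1G47395 at 543, 580.2 and 711 in the Col-0 libraries and 159, 169 and 133 in the spc libraries, all without overlap. PYE, a regulator of iron transport genes, did not pass (-0.27 ± 0.14). Of 17 nitrate genes 12 were higher and 0 lower, with a median of 0.43. The LBD factor genes LBD37, LBD38 and LBD39, which repress nitrate responses, had log2 differences of 0.55 ± 0.06, 0.86 ± 0.09 and 0.85 ± 0.08, and UPM1, of siroheme synthesis, was at 4034, 3976 and 3942 in the Col-0 libraries and 6660.4, 7495 and 6949 in the spc libraries. Of 17 phosphate starvation genes 2 were higher and 1 lower, fewer than the 20.3% and 19.7% of all genes, and the 2 higher calls fell to 0 without Col-0 replicate 2 and to 1 without Col-0 replicate 1 or spc replicate 2. The lower call was lost without any library except Col-0 replicate 2. In the dark-inducible and senescence list 5 of 8 were higher and 1 lower, with a median of 0.95. DIN10, a dark-inducible gene, was at 4898, 5359 and 3818 in the Col-0 libraries and 33397, 26740.3 and 31327 in the spc libraries, and NAC6, a senescence factor gene, at 481, 558 and 467 in the Col-0 libraries and 981, 929 and 999 in the spc libraries.

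Genes of the cell wall and of growth hormones were mixed. Of 25 xyloglucan and expansin genes 13 were higher, 8 lower and the median was 0.40. The xyloglucan genes XTR6, at 173, 133 and 134 in the Col-0 libraries and 1012, 929 and 978 in the spc libraries, and XTH9, at 3917, 3941 and 3328 in the Col-0 libraries and 9842, 9901 and 10719 in the spc libraries, were above Col-0 in every library, and the expansin gene EXPA1, at 12896, 12779 and 11661 in the Col-0 libraries and 5573, 5643 and 5269 in the spc libraries, was below it. Without spc replicate 3 the lower count was 5. Auxin response genes were higher in 7 of 22 cases and lower in 5, against 20.3% and 19.7% of all tested genes, with a median of 0.13. WES1, a gene for an auxin-conjugating enzyme, was at 754, 784 and 666 in the Col-0 libraries and 2387, 1973 and 2184 in the spc libraries, and IAA2, an Aux/IAA repressor gene, at 2366, 2544 and 2337 in the Col-0 libraries and 4634, 5138 and 4706 in the spc libraries. SAUR15, a small auxin-induced gene, was at 184, 229 and 223 in the Col-0 libraries and 76.4, 82.4 and 32.9 in the spc libraries, and IAA29 had a log2 difference of -1.04 ± 0.23. Without spc replicate 1 the lower count was 3. Brassinosteroid genes were higher in 5 of 13 cases and lower in 1, with a median of 0.17. The transcription factor gene BZR1 was at 696, 664 and 703 in the Col-0 libraries and 1233, 1284 and 1248 in the spc libraries, and the synthesis gene BR6OX2 was the one that fell, at 1215, 1253 and 1175 in the Col-0 libraries and 684, 633 and 468 in the spc libraries.

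Of 16 gibberellin genes 4 were higher and 3 lower, near the 20.3% and 19.7% of all tested genes, with a median of 0.05. GA2OX2, whose product inactivates gibberellin, was at 78.8, 89.3 and 70.7 in the Col-0 libraries and 396, 309 and 326 in the spc libraries, and GA20OX1, a synthesis gene, at 109.8, 87.8 and 128 in the Col-0 libraries and 37.2, 43.0 and 32.7 in the spc libraries. Of 12 cytokinin genes 1 was higher and 5 lower, with a median of -0.30, and the type-A response regulator genes ARR6, ARR7 and ARR4 fell, by log2 differences of -0.73 ± 0.17, -0.65 ± 0.15 and -0.36 ± 0.09. Without spc replicate 2 the lower count was 3, and the single rise was lost without Col-0 replicate 1 or spc replicate 3. Among 13 flowering time genes 4 were higher and 2 lower, against 20.3% and 19.7% of all tested genes, with a median of 0.09. The higher count was 1 without Col-0 replicate 1 and 2 without spc replicate 2 or 3, and the lower count 1 without Col-0 replicate 1 or 3. FT, the gene of the flowering signal made in leaves, was at 33.8, 41.3 and 28.5 in the Col-0 libraries and 81.9, 115 and 128 in the spc libraries (adjusted p = 3.5e-05). FLC, the vernalisation-controlled repressor gene, was at 6.5, 11.9 and 8.4 in the Col-0 libraries and 6.2, 2.3 and 1.0 in the spc libraries and did not pass.

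Of 12 genes of the GCN5 complexes, 0 were higher and 3 lower, against 20.3% and 19.7% of all tested genes, with a median of -0.26 against -0.01. The 3 were SGF29b, annotated with a tudor-like domain, at 500.3, 472 and 563 in the Col-0 libraries and 296, 409 and 276 in the spc libraries, UBP22, the deubiquitinase gene of the SAGA type complex, at 814, 909.6 and 858 in the Col-0 libraries and 638, 559.7 and 699 in the spc libraries, and ADA2B, at 1535, 1435 and 1531 in the Col-0 libraries and 1243, 1246 and 1245 in the spc libraries. Scaled to equal column totals, 5 members passed as lower. Of 11 other histone acetyltransferase genes 1 was higher and 3 lower. The rise was HAC2, listed at 0 in Col-0 and at 4.3, 11.6 and 27.5 in spc. HAC12 fell by 0.37 ± 0.10 on the log2 scale, which did not pass without spc replicate 2 (-0.26). The lower count was 1 without Col-0 replicate 1 or spc replicate 2.

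The spc mutation was also present in 2 double mutants, so its change could be measured in backgrounds that share no library with the comparison of spc and Col-0. Between ada2aspc and ada2a 3215 genes differed (14.7%), 6.77% higher and 7.93% lower in ada2aspc, with 98 (0.448%) and 227 (1.04%) at least 2-fold. Between spcing1 and ing1 617 genes differed (2.82%), 1.78% higher and 1.04% lower, with 20 (0.0915%) and 43 (0.197%) at least 2-fold. That count was 252 without ing1 replicate 2, 233 without ing1 replicate 3, 228 without spcing1 replicate 2 and 342 without spcing1 replicate 3. Of the genes that differed, 63.2% were higher in spcing1, against 48.8% when libraries were scaled to equal column totals. Across the 21868 genes Pearson's r of the log2 differences was 0.08 between wild type and ada2a backgrounds and 0.22 between wild type and ing1 backgrounds. Genes are not independent replicates, and these values are a description.

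Most of the genes with the largest rises in spc were lower in ada2aspc than in ada2a. Of the 15 largest rises, 13 were lower in ada2aspc than in ada2a and 0 higher, with a median log2 difference of -1.46. Most still stood above Col-0 in the double mutant. Against Col-0, 14 of the 15 were higher in ada2aspc, with a median of 2.65, and 15 in ada2a, with a median of 4.39. Those 2 comparisons share the Col-0 libraries by which the 15 were chosen. DIC2 was at 564 ± 244 in ada2aspc and 4098 ± 114 in ada2a, a log2 difference of -2.94 ± 0.30 (adjusted p = 3.8e-08). WRKY40 was at 549 ± 157 and 2671 ± 233, and CYP707A3 at 293 ± 131 and 1624 ± 121. TCH3 (-0.03 ± 0.13) and EXO (0.48 ± 0.17) did not pass. Of the 26 touch and early stress genes, 19 were lower in ada2aspc and 0 higher. The change with spc differed between the ada2a background and wild type in 18.6% of the tested genes, by limma's test of the difference itself, 7.76% higher and 10.8% lower in the ada2a background. Between the ing1 background and wild type it differed in 18.6%, 7.95% higher and 10.7% lower. In the ing1 background 3 of the 15 largest rises were higher and 0 lower, with a median of 0.69, and DREB26 was at 4113 ± 622 in spcing1 and 2153 ± 175 in ing1.

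Of all 1197 genes at least 2-fold higher in spc, 141 were also higher in ada2aspc than in ada2a (11.8%) and 261 were lower (21.8%), shares to be read against the 6.77% and 7.93% of all genes. In spcing1 against ing1, 104 of them were higher (8.69%) and 6 lower (0.501%), against 1.78% and 1.04% of all genes. Of the 577 genes at least 2-fold lower in spc, 132 were lower (22.9%) and 11 higher in ada2aspc, and 49 were lower (8.49%) and 0 higher in spcing1. Morning clock genes were lower in 5 of 10 cases in ada2aspc and in 0 of 10 in spcing1, and photosynthesis genes in 5 of 27 and 0 of 27. Over all tested genes 7.93% were lower in ada2aspc and 1.04% in spcing1, so the counts of 0 in spcing1 are near that share. Of the xyloglucan and expansin genes 11 of 25 were higher in ada2aspc and 7 in spcing1, against 6.77% and 1.78% of all genes.

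**Figure D4:**
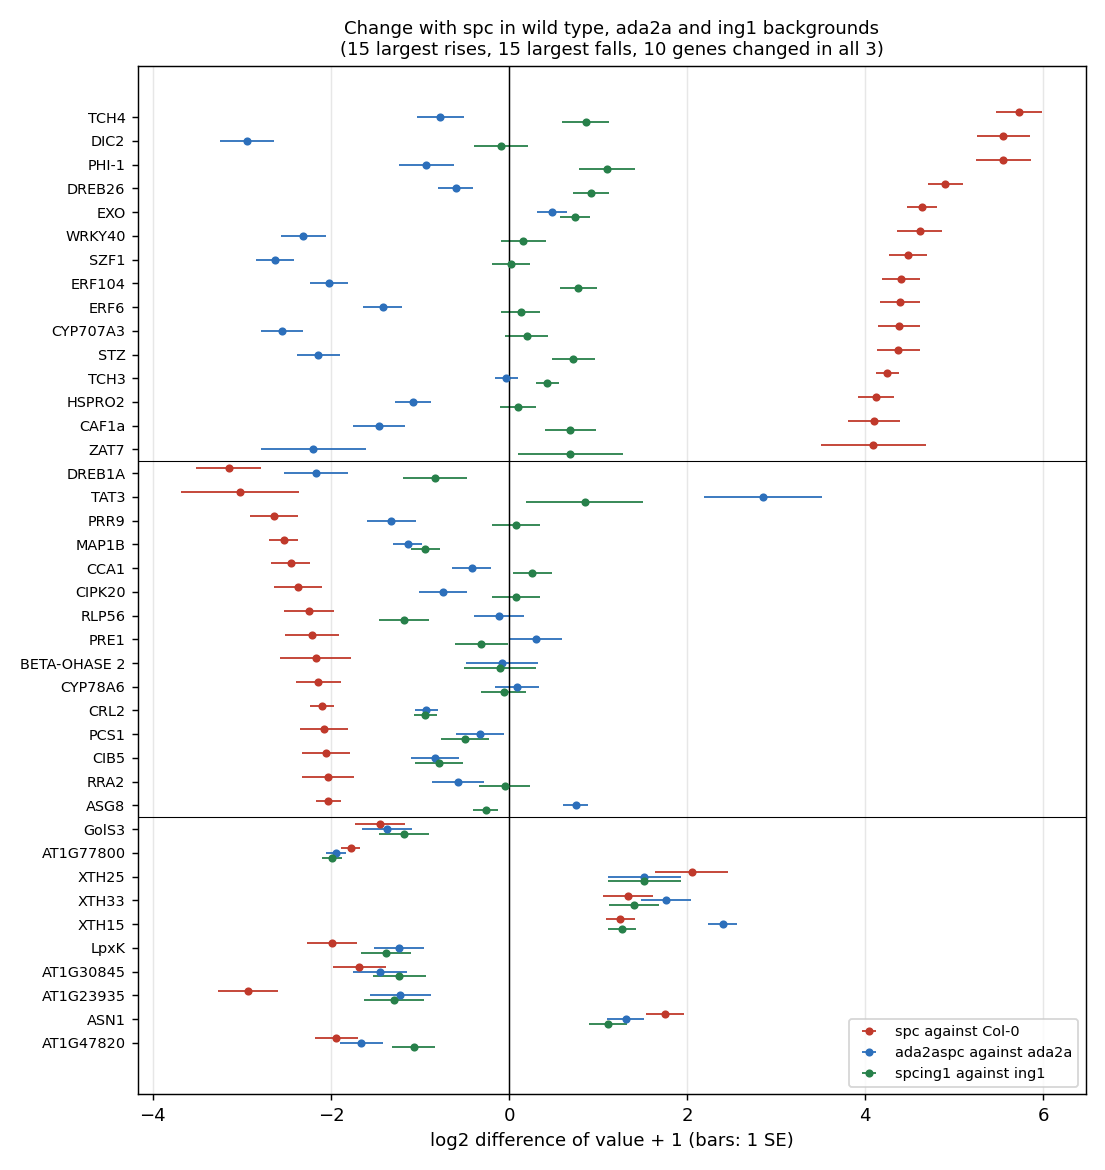
Log2 difference with spc (points, bars of 1 SE) in wild type (red), ada2a (blue) and ing1 (green) backgrounds for the 15 largest rises, the 15 largest falls and 10 genes changed at least 2-fold the same way in all 3. The blue points of 14 of the 15 rises lie below 0, with EXO at 0.48 the exception, and for AT1G77800 the 3 points lie between -1.99 and -1.78.

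In the same direction in all 3 backgrounds, 305 genes passed, 232 higher and 73 lower (1.39% of those tested), and 12 did so at least 2-fold (0.0549%), 4 higher and 8 lower. These counts were 108 higher and 46 lower without ing1 replicate 2, 110 higher and 32 lower without ing1 replicate 3, 100 higher and 38 lower without spcing1 replicate 2, and 129 higher and 49 lower without spcing1 replicate 3. Of the 12 genes, 4 remained without ing1 replicate 2, 7 without ing1 replicate 3 and 6 without spcing1 replicate 2. With a pseudocount of 16, 5 of the 12 were kept and 1 gene was at least 2-fold lower in all 3. With only the groups compared in the fit, 34 genes were lower in all 3, and 3 of them at least 2-fold. The gene whose smallest change was largest was AT1G77800, which the reference annotates as a PHD finger family protein, a type of domain that binds histone tails (chr1:29253332-29260617, plus strand). It was at 3367, 3985 and 4091 in the Col-0 libraries and 1084, 1107 and 1122 in the spc libraries, and its log2 difference was -1.78 ± 0.11 (adjusted p = 8.4e-14). In the ada2a background it was -1.94 ± 0.11 and in the ing1 background -1.99 ± 0.11. The 9 libraries that carry spc lay between 826.5 and 1122, and the 21 others between 2641 and 4091. Since the mutated locus of spc is not given, whether this gene's values reflect the lesion itself or a change in its expression was not tested. It passed in all 3 backgrounds under every alternative tried. Of the 20 tested genes next to it, 10 on each side, 2 were lower and 3 higher in spc than in Col-0. Of all tested genes, 19.7% were lower and 20.3% higher. In either other background 0 of the 20 were lower, against 7.93% of all tested genes in ada2aspc and 1.04% in spcing1. Over only 20 genes these counts lie near those shares and are a description.

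Over all tested genes, the 9 libraries with spc lay wholly below the 21 without it in 27 genes (0.123%) and wholly above them in 6 (0.0274%). The other genes changed at least 2-fold in all 3 backgrounds included 3 xyloglucan genes. XTH15 was at 268, 312 and 237 in the Col-0 libraries and 872, 562 and 553 in the spc libraries, with log2 differences of 1.25 ± 0.16, 2.40 ± 0.16 in the ada2a and 1.27 ± 0.16 in the ing1 background. XTH33 was at 82.0, 60.1 and 42.4 in the Col-0 libraries and 144, 146 and 166 in the spc libraries, and XTH25, which lies next to its paralog TCH4 on chromosome 5 and may share reads with it, at 47.7, 64.2 and 53.7 in the Col-0 libraries and 174, 289 and 242 in the spc libraries. ASN1, an asparagine synthetase gene induced by darkness and sugar starvation, was at 2629, 2957 and 1962 in the Col-0 libraries and 9311, 6749 and 9276 in the spc libraries, 18594 ± 3484 in ada2aspc and 22972 ± 6764 in spcing1. Its log2 differences were 1.75 in wild type, 1.31 in the ada2a and 1.11 in the ing1 background. Libraries with spc ranged from 6749 to 29702 and overlapped those without it, at 1594 to 23016. The falls were GolS3, a galactinol synthase gene at 311, 252 and 377 in the Col-0 libraries and 112, 99.5 and 128 in the spc libraries, LpxK, with a log2 difference of -1.99 ± 0.28, and the loci AT1G23935, AT1G30845 and AT1G47820. Among these rises and falls, only AT1G47820 had no overlap between the libraries with spc and those without it. Outside the rule for named genes, AT5G54090, annotated as a MutS type mismatch repair protein, and AT2G24350, annotated as an RNA-binding protein (-1.64 on the log2 scale in spc), also fell in all 3.

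**Figure D5:**
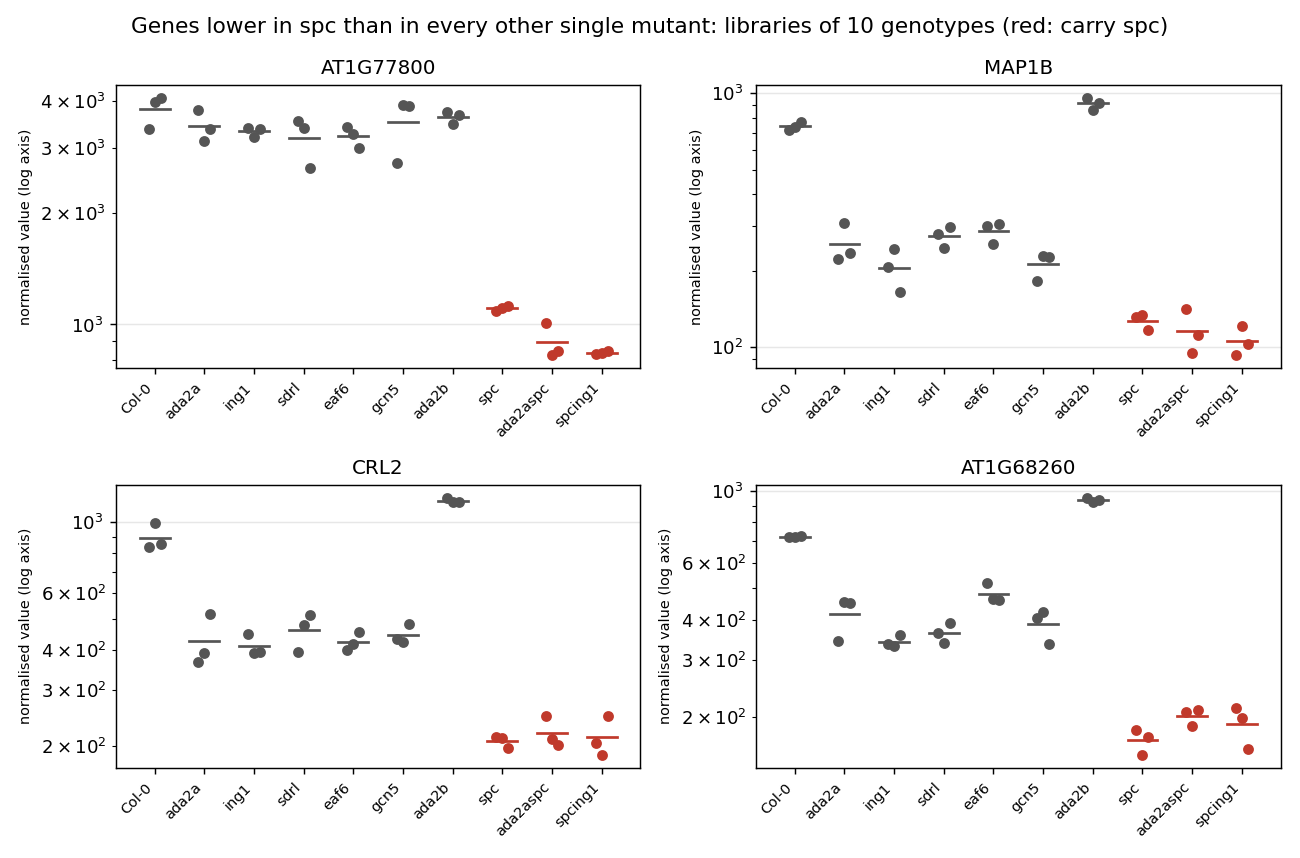
Normalised value of each library (points) and genotype mean (bars) on a logarithmic vertical axis for AT1G77800, MAP1B, CRL2 and AT1G68260 in 10 genotypes, with genotypes that carry spc in red. In each gene all 9 red points lie below all 21 grey ones, with AT1G77800 between 826.5 and 1122 against 2641 to 4091.

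Genes that set spc apart from each of the 6 other single mutants as well as from Col-0 numbered 16 (0.0732%), 3 higher and 13 lower. MAP1B, a methionine aminopeptidase gene (chr3:9397784-9399805, plus strand), was at 715, 733 and 771 in the Col-0 libraries and 131, 133 and 117 in the spc libraries. It was at 255 ± 46 in ada2a and 913 ± 48.7 in ada2b, the lowest of the 18 libraries of those 6 mutants being 164. CRL2, annotated with an NAD(P)-binding fold (chr2:14226668-14228742, plus strand), was at 837, 992 and 855 in the Col-0 libraries and 214, 212 and 197 in the spc libraries, against 425 ± 80.3 in ada2a, and stayed at 220.2 ± 25.2 in ada2aspc and 214 ± 31.3 in spcing1. AT1G68260, annotated as a thioesterase, was at 720.0, 719 and 722 in the Col-0 libraries and 182, 153 and 174 in the spc libraries. AT2G30320, a pseudouridine synthase family gene, was at 602, 499.6 and 642 in the Col-0 libraries and 183, 201 and 150.4 in the spc libraries, and AT1G50970, a VPS53 family gene of membrane trafficking, at 598, 616 and 549 in the Col-0 libraries and 160.4, 143 and 195 in the spc libraries. AT2G20440, with a Rab-GAP domain, was at 613, 478 and 546 in the Col-0 libraries and 136, 137 and 169 in the spc libraries. AT2G43465, AT3G28956 and EMB2757 had log2 differences of -2.40 ± 0.25, -1.52 ± 0.22 and -1.30 ± 0.18 from Col-0. In all 9 of these genes the mean of ada2b was above that of Col-0, while the means of the other 5 single mutants lay between those of spc and Col-0. That all 6 stood above spc was required by the rule that chose these genes. AT1G77800, described above, also lay lower in every spc library than in any library of the other single mutants, and is not among these 9.

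Of the 3 genes higher in spc than in Col-0 and in each other single mutant, AT2G01422, which has no product name in the reference, was at 320.4, 185 and 89.2 in the Col-0 libraries and 1758, 1875 and 2353 in the spc libraries, and its Col-0 libraries differed several-fold among themselves. It was at 44.2 ± 38.1 in ada2a, 8.51 ± 6.34 in ada2aspc and 790.4 ± 558 in spcing1, so the double mutant with ada2a did not share the high value. AT2G30230, annotated as a lumazine synthase of riboflavin synthesis, was at 317, 310.1 and 266 in the Col-0 libraries and 977, 901 and 1072 in the spc libraries, and AT1G18265, of unknown function, at 217, 282 and 219 in the Col-0 libraries and 636, 936 and 657 in the spc libraries. Neither passed between ada2aspc and ada2a (adjusted p = 0.382 and 0.682) or between spcing1 and ing1 (adjusted p = 0.324 and 0.46).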

How the data were processed

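RNA-seq was done on 30 libraries of 12-day seedlings, per the labels' protocols. The authors deposited 1 table of normalised signal values per gene and library, with fractional values and similar column totals. The submitters' processing notes name bcl2fastq, HISAT2, edgeR and TAIR10 without stating their roles, and whether counting used strand is not given in the sources used here. Because the deposited values are not raw counts, the depth behind a value is unknown and no counting interval is given.

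Columns were matched to samples by name. Genes were kept where 3 or more of the 30 libraries reached 10, log2(value + 1) was fitted with limma 3.58.1 (R 4.3.3) with a term per genotype over all 30 libraries (20 residual degrees of freedom, variance trend), and p-values were adjusted by Benjamini-Hochberg over 21868 genes, with a threshold of 0.05. The pseudocount of 1 understates the fold of low genes. Overlapping and antisense genes may share reads. Tables and figures were made with Python 3.11.15, pandas 2.3.3, numpy 2.4.6 and matplotlib 3.10.9.

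Symbols came from RefSeq TAIR10.1, by locus; 10804 of 32548 loci had one. The members and lists were chosen with earlier results of these data known, and the tests of spc against each single mutant and of differences between backgrounds are contrasts of the same fit; 433 of 446 list entries matched by symbol and 13 by locus only. Named genes were the 15 largest rises and falls (at least 2-fold, mean at least 100, with a symbol, groups not overlapping); up to 4 passing genes per list and direction by smallest adjusted p and up to 2 that did not pass; up to 10 genes changed in 3 backgrounds; up to 10 per direction that set spc apart; and the mutated loci. Of those, the text names a part.

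Same-numbered libraries did not pair: correlations of their deviations between spc and Col-0 were 0.020, -0.047 and -0.005. On data simulated for spc against Col-0 over 21868 genes, the fit recovered 38.0% of genes changed by 0.5, 64.0% of those changed by 1 and 86.0% of those changed by 2 on the log2 scale, with 11 false calls. Only 50 genes were changed at each size and direction, far fewer than the 8729 that passed in the data. The adjustment of p-values depends on that share, so these rates need not hold for the data. Alternatives were median-ratio size factors, equal column totals, no filter, only the groups compared, a replicate block, a pseudocount of 16 and leaving out each library.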

Additional observations from a re-analysis of the deposited data

Results flagged for a closer look

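The change with spc was tested for a difference between backgrounds in the same limma fit, an added comparison chosen after seeing the data. It differed between the ada2a background and wild type in 4069 genes (18.6% of those tested), 1697 higher and 2372 lower in the ada2a background. Between the ing1 background and wild type it differed in 4075 genes (18.6%), 1739 higher and 2336 lower. All 15 of the largest rises were among the lower ones in both, with medians of -6.42 and -4.02 on the log2 scale. Each difference subtracts the rise in spc against Col-0 for which these genes were chosen. The count and the medians were therefore largely set by that choice and are descriptions. In spcing1 against ing1 itself, 3 of the 15 were higher and 0 lower, with a median of 0.69. In ada2aspc against ada2a, 13 were lower and 0 higher, with a median of -1.46. Both differences between backgrounds contain the same spc and Col-0 libraries.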

How the results depend on the processing

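The counts of genes higher, lower and at least 2-fold higher in spc than in Col-0 stayed within 1.5 times of the reported values under every alternative tried. The count at least 2-fold lower was 368 with a pseudocount of 16, from 577, since a larger pseudocount shrinks the change of low genes. With 1 library left out, the counts in spc against Col-0 were 3846 to 4014 higher, 3619 to 3769 lower, 1109 to 1173 at least 2-fold higher and 534 to 603 at least 2-fold lower. The number of genes that differed was 6459 to 8373 between spc and the mean of the 6 other single mutants, 2157 to 3138 between ada2aspc and ada2a, and 228 to 760 between spcing1 and ing1. The cause of that last spread was not tested. The same-numbered libraries share only a number. With a replicate block 4400 genes were higher and 4250 lower in spc than in Col-0, 5015 higher and 3106 lower than in the mean of the 6 other single mutants, 1429 higher and 1671 lower in ada2aspc than in ada2a, and 366 higher and 204 lower in spcing1 than in ing1. No named gene reversed under these alternatives. With 1 library left out, between 11 and 18 named genes no longer passed, and between 1 and 5 others did. The values carry no depth, so precision rests on 3 libraries per genotype.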
